A study of Mus musculus with 8 samples.

Results

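The cadherin, protocadherin and desmosome genes of Lacun3, a mouse lung adenocarcinoma cell line, were examined in bulk messenger RNA sequencing of 4 STK11 KO and 4 STK11 WT libraries. The members were the protein-coding genes of the count table named Cdh, Pcdh, Dsg, Dsc or Pkp with a number or cluster letter, together with Dsp and Jup, which gave 108 of 56884 annotated genes. STK11 KO cells were a Lacun3 line in which Stk11, the gene of the tumour suppressor kinase LKB1, had been disrupted by CRISPR. The sources used here do not say whether that line was a single clone. STK11 WT cells were the parental Lacun3 line. Cells of both genotypes grew untreated in serum-containing DMEM and were collected in logarithmic growth, and each genotype was represented by 4 cultures that the labels call biological replicates. All replicates of a genotype thus came from a single line, so the p-values below measure the spread between cultures of one edited and one parental line.

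Cadherins are transmembrane proteins that hold neighbouring cells together through calcium-dependent contacts between their extracellular domains. Classical cadherins such as E-cadherin are tied through catenins to actin at adherens junctions, whereas desmogleins and desmocollins are tied through plakoglobin, plakophilins and desmoplakin to keratin filaments at desmosomes, the spot-like junctions that give epithelia mechanical strength. Protocadherins are a larger, mostly neuronal branch, of which the alpha, beta and gamma genes lie side by side in clusters and are used for recognition between cells. In carcinoma cells, the balance of E-cadherin and N-cadherin is widely used as a readout of epithelial and mesenchymal character.

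Library sizes were 21441601 to 25715008 counts in STK11 KO and 18837263 to 21101904 counts in STK11 WT. Levels are given as counts scaled to a library of fixed size (CPM), on which scale a single read pair amounted to 0.0388 to 0.0515 CPM. Stk11 itself stood at 34.7 ± 0.853 CPM in STK11 KO and 66.3 ± 1.79 CPM in STK11 WT (SD, n = 4 each), a log2 fold change of -0.93 ± 0.06 (SE). Transcripts of the edited gene were therefore lower but still counted. The epithelial markers Krt8, Krt18, Krt19, Epcam and Cldn4 with Cldn7 summed to 7549 to 8438 CPM in STK11 KO and 8017 to 8429 CPM in STK11 WT, although Cldn7 was at 0 counts in all libraries. The keratins made up nearly all of that sum, which hides the single genes. In the edgeR test given below, Epcam (log2 -0.30) and Krt18 (log2 -0.49) were called lower in STK11 KO. Krt19 was called higher (log2 0.22) and Krt8 was not called. Cldn4, too low to be tested, had 5 counts over the STK11 KO libraries and 37 over the STK11 WT libraries. Of the alveolar type 2 markers, Sftpc and Sftpa1 were at 0 and Sftpb and Nkx2-1 averaged at most 0.0116 CPM in either genotype, so that the lung label did not show in these genes and Abca3 made up nearly all of that list. Markers of leukocytes summed to 13.0 to 25.4 CPM in STK11 KO and 46.7 to 53.1 CPM in STK11 WT, mostly Cd68, and fibroblast markers to 2.03 to 3.07 CPM in STK11 KO and 3.92 to 5.72 CPM in STK11 WT. Neuronal markers summed to 1.68 to 2.02 CPM in STK11 KO and 2.00 to 2.16 CPM in STK11 WT. The part of these shifts in the results below was not tested. In bulk RNA, fewer cells with a transcript and less of it per cell cannot be told apart.

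Of the 108 members, 72 had at least 1 count, and 24 were abundant enough to be tested; 36 had none in any library. Among the 24, 14 were higher and 3 lower in STK11 KO at an adjusted p under 0.05 (edgeR quasi-likelihood test, Benjamini-Hochberg adjustment over 13707 genes), and 7 did not pass. Called members made up 70.8% of those tested, against 68% of all genes tested, so the share that changed was near the background. By direction, 34.4% of all tested genes were called higher and 33.6% lower, against the 14 and 3 of 24 members. The counts by class below stand beside these same shares. A rise of at least 2-fold was called for 4 members, Pcdh7, Pcdhgb8, Cdh5 and Cdh17, and for 7.02% of all tested genes. A fall of at least 2-fold was called for none of the tested members, against 9.41% of all tested genes. The median log2 fold change, STK11 KO over STK11 WT, was 0.37 over the 24 members and 0.01 over all tested genes, and the median size of change regardless of sign was 0.49 over the members and 0.37 over all. The groups did not overlap for 15 members, beside 60.6% of all tested genes. Pcdhgb8 reached the abundance filter through its STK11 KO libraries alone, so that it could enter these counts only by being higher there.

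**Figure D1:**
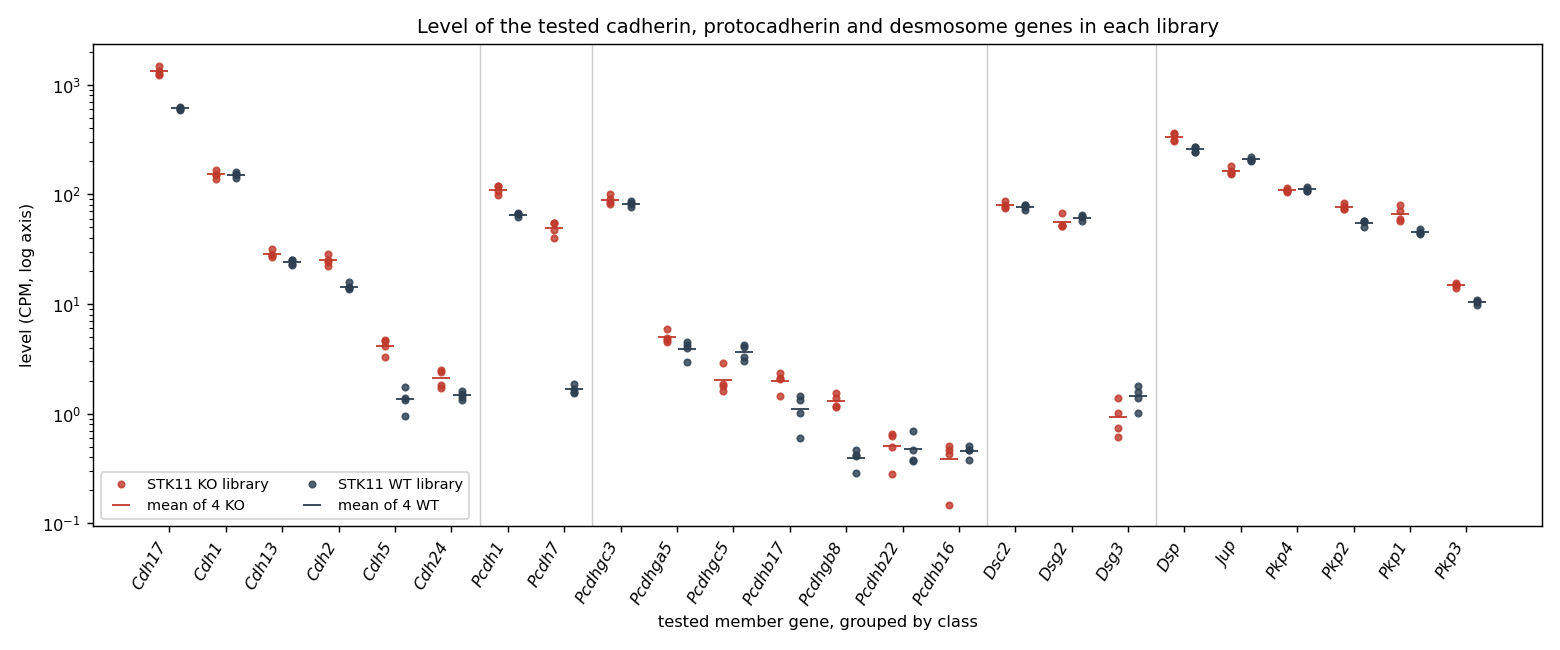
Level of the 24 tested members in each library in CPM (log axis), with STK11 KO points left of STK11 WT points and a bar at each mean of 4 libraries. Cdh17 stands at 1232 to 1486 CPM in STK11 KO and 583 to 629 CPM in STK11 WT, and the widest gap between the genotypes is that of Pcdh7.

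The promoters of 3 members are printed here: Pcdh7, which had the largest change, and Dsp and Jup, partners in the desmosomal plaque whose transcripts moved in opposite directions. Of the 24 tested members, 5 were found in the RefSeq promoter table (build GRCm38.p6): Pcdh7, Dsp, Jup, Pkp4 and Cdh24. Each run is the 250 bases before the annotated start, 5′ to 3′ on the gene's strand, at chr5:57717831-57718080 on the plus strand for Pcdh7, chr13:38151044-38151293 on the plus strand for Dsp and chr11:100397791-100398040 on the minus strand for Jup. Capitals mark GC boxes, GGGCGG on either strand.
Pcdh7: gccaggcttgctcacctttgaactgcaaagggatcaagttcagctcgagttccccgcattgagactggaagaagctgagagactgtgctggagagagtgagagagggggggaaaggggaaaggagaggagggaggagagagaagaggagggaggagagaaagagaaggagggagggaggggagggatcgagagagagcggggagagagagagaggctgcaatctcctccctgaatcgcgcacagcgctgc
Dsp: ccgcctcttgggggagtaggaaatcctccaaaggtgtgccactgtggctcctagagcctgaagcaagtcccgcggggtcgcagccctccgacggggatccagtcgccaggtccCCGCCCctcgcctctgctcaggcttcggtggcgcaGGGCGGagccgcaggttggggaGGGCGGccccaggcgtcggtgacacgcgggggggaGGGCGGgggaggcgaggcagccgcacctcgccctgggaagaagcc
Jup: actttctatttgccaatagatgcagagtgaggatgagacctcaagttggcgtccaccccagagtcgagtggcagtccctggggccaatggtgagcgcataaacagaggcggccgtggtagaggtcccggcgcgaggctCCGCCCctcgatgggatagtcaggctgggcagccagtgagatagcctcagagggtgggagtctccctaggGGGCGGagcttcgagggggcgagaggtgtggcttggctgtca
The Dsp run held 4 GC boxes, whose first bases lay 137, 102, 80 and 45 bases before the start, and the Jup run held 2, at 112 and 42 bases. The Pcdh7 run held none, and had 58.4% GC and 7 CG dinucleotides, against 22 CG in Dsp and 13 in Jup. Among 32851 promoter windows of the same length, 32.7% held a GC box and the median number of CG was 6. Searched on both strands, the AP-1 letters TGANTCA (in 6.75% of all windows), the Snail E-box CAGGTG (17.2%) and the cAMP response element TGACGTCA (1.55%) were in none of the 3 windows.

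Among the 23 classical and related cadherins, 13 had a count and 6 were tested, of which 5 rose, none fell and Cdh1 did not pass. Cdh17, liver-intestine cadherin, a cadherin with a short cytoplasmic tail known from gut epithelium, was the most abundant member per length in both genotypes. It lies on chromosome 4 from 11758147 to 11817895 on the plus strand (GRCm39). Its level was 1486, 1253, 1232 and 1340 CPM in STK11 KO replicates 1 to 4, against 629, 617, 583 and 606 CPM in STK11 WT replicates 1 to 4. Every STK11 KO library lay above every STK11 WT library, by about the height of the STK11 WT level itself. The fold was 2.18, a log2 fold change of 1.13 ± 0.06 (SE; 95% interval 0.99 to 1.26, adjusted p = 3.92e-13). Per kilobase of exon, its level was 297 in STK11 KO and 136 in STK11 WT (CPM per kilobase, written RPKM), which was 87.9% ± 0.532 of the summed per-length level of the cadherins in STK11 KO and 78.3% ± 0.302 in STK11 WT (SD, n = 4 each). The sum of all members came to 2707 ± 165 CPM in STK11 KO and 1794 ± 57.5 CPM in STK11 WT, and Cdh17 alone made up 78.8% of that difference.

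Of the genes of E-cadherin and N-cadherin, the second rose and the first was not called. Cdh1, the gene of E-cadherin, had 169, 140, 152 and 150 CPM in STK11 KO and 160, 152, 141 and 150 CPM in STK11 WT. The libraries of both genotypes interleaved. Its log2 fold change was 0.02 ± 0.06 (SE; 95% interval -0.10 to 0.14, adjusted p = 0.794), and the sign of this small value turned when libraries were scaled by library size alone or when STK11 KO replicate 1 or STK11 WT replicate 3 was left out. Cdh2, the gene of N-cadherin on chromosome 18, had 24.2, 22.3, 28.6 and 25.2 CPM in STK11 KO and 13.7, 15.8, 14.3 and 14.1 CPM in STK11 WT. All STK11 KO libraries were above all STK11 WT libraries, and the gene rose 1.74-fold (log2 0.80 ± 0.09 SE, adjusted p = 3.21e-08). Per length, Cdh1 still stood well above Cdh2 in both genotypes, at 33.4 against 3.11 RPKM in STK11 KO and 33.0 against 1.79 RPKM in STK11 WT. Cdh3, the gene of P-cadherin, was barely counted, with 6 counts over the STK11 KO libraries and 4 over the STK11 WT libraries, too few for a test.

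The ratio of Cdh1 to Cdh2 counts, which needs no scaling between libraries, was 6.98, 6.26, 5.32 and 5.96 in STK11 KO and 11.7, 9.62, 9.88 and 10.7 in STK11 WT. The highest STK11 KO ratio lay below the lowest STK11 WT ratio. On the log2 scale the ratio averaged 2.61 ± 0.16 in STK11 KO and 3.38 ± 0.13 in STK11 WT (SD, n = 4 each), a difference of -0.77. The exact two-sided permutation p was 0.0286, the smallest that the 70 assignments of 8 libraries can give. Of the pair, Cdh2 rose in the fit across all genes and Cdh1 was not called.

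**Figure D2:**
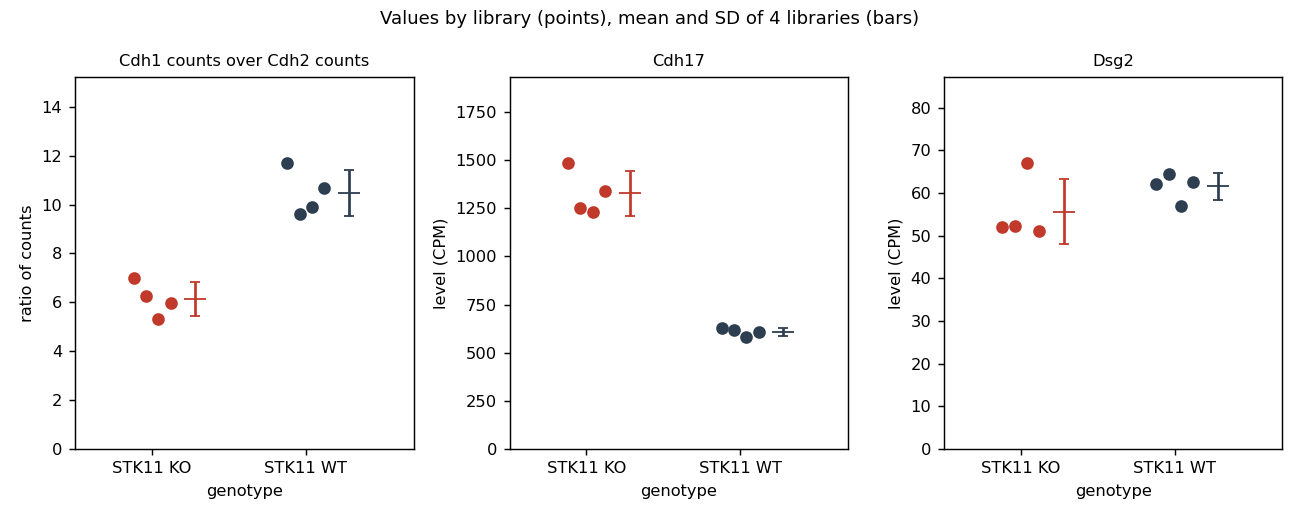
Left, Cdh1 counts over Cdh2 counts in each library; middle and right, Cdh17 and Dsg2 in CPM, with STK11 KO left of STK11 WT and bars giving mean and SD of 4 libraries. The ratio lies between 5.32 and 6.98 in STK11 KO and between 9.62 and 11.7 in STK11 WT, and 1 STK11 KO library lies apart for Dsg2, at 67.0 CPM.

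Cdh5, the gene of VE-cadherin, best known from endothelial junctions, was scarce and rose. On chromosome 8 from 104828257 to 104871143, plus strand (GRCm39), it had 4.56, 4.15, 3.30 and 4.68 CPM in STK11 KO and 1.33, 1.76, 0.963 and 1.39 CPM in STK11 WT. The genotypes were apart in all libraries, a 3.03-fold rise (log2 1.60 ± 0.20 SE; 95% interval 1.19 to 2.00, adjusted p = 1.89e-07). The 6 endothelial markers summed to 0 to 0.248 CPM in STK11 KO and 0.0927 to 0.155 CPM in STK11 WT, with Kdr, Cldn5 and Emcn at 0 in all libraries. These 6 markers were thus at or near 0 in both genotypes.

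Smaller rises were called for Cdh13 and Cdh24. Cdh13, the gene of T-cadherin, which is anchored in the membrane by a lipid and lacks a cytoplasmic tail, averaged 28.8 ± 2.21 CPM in STK11 KO and 24.1 ± 1.38 CPM in STK11 WT (log2 0.26 ± 0.07 SE, adjusted p = 0.00425). Cdh24 was at 2.12 ± 0.407 CPM in STK11 KO and 1.48 ± 0.122 CPM in STK11 WT (log2 0.50 ± 0.20 SE, adjusted p = 0.0327). Neither gene's groups overlapped. The Cdh24 call was lost in 10 of 19 alternatives: without STK11 KO replicate 1 or 2 or STK11 WT replicate 2, 3 or 4 (adjusted p 0.0529 to 0.0903), with DESeq2 (adjusted p = 0.0577), limma-voom (0.0519), no filter (0.0516) or scaling by library size alone (0.0699), and against a log2 fold change of 1. Among the untested cadherins, Cdh22 stood out after its values were seen: it had 3, 8, 23 and 12 counts in STK11 KO and 0 in every STK11 WT library, at least 14.5-fold higher when STK11 WT is set to 3 counts in sum. STK11 KO replicate 3 held the most of these counts and replicate 1 the fewest.

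The protocadherins outside the clusters held the largest change. Pcdh7, which lies on chromosome 5 from 57875309 to 58290572 on the plus strand (GRCm39) and encodes a protocadherin that is known to bind the phosphatase inhibitor SET and to promote lung tumours in mouse models, had 47.9, 54.5, 40.1 and 54.9 CPM in STK11 KO. In STK11 WT it had 1.57, 1.67, 1.88 and 1.55 CPM. The lowest STK11 KO library was far above the highest STK11 WT library, and the spread within each genotype was small beside the gap. The rise was 29.4-fold (log2 4.88 ± 0.13 SE; 95% interval 4.61 to 5.15, adjusted p = 9.29e-19). Among all 13707 tested genes it ranked 55 by the size of its rise. Genes that overlap Pcdh7 had at most 2 counts in any library. Per length its level was 4.65 RPKM in STK11 KO and 0.157 RPKM in STK11 WT.

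Pcdh1, the other tested gene of this branch, is a protocadherin of airway epithelium on chromosome 18. It had 120, 98.1, 118 and 107 CPM in STK11 KO and 62.5, 67.2, 65.6 and 66.9 CPM in STK11 WT. The groups were apart, with a 1.69-fold rise (log2 0.76 ± 0.06 SE, adjusted p = 3.85e-10). Of the other 10 genes in this branch 4 had any count. Pcdh19 had 3 counts over the STK11 KO libraries and 19 over the STK11 WT libraries, and Pcdh15 had 0 in STK11 KO and 8 in STK11 WT, at least 2.82-fold lower when STK11 KO is set to 3 counts in sum; both were too low to be tested and are named after their values were seen.

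**Figure D3:**
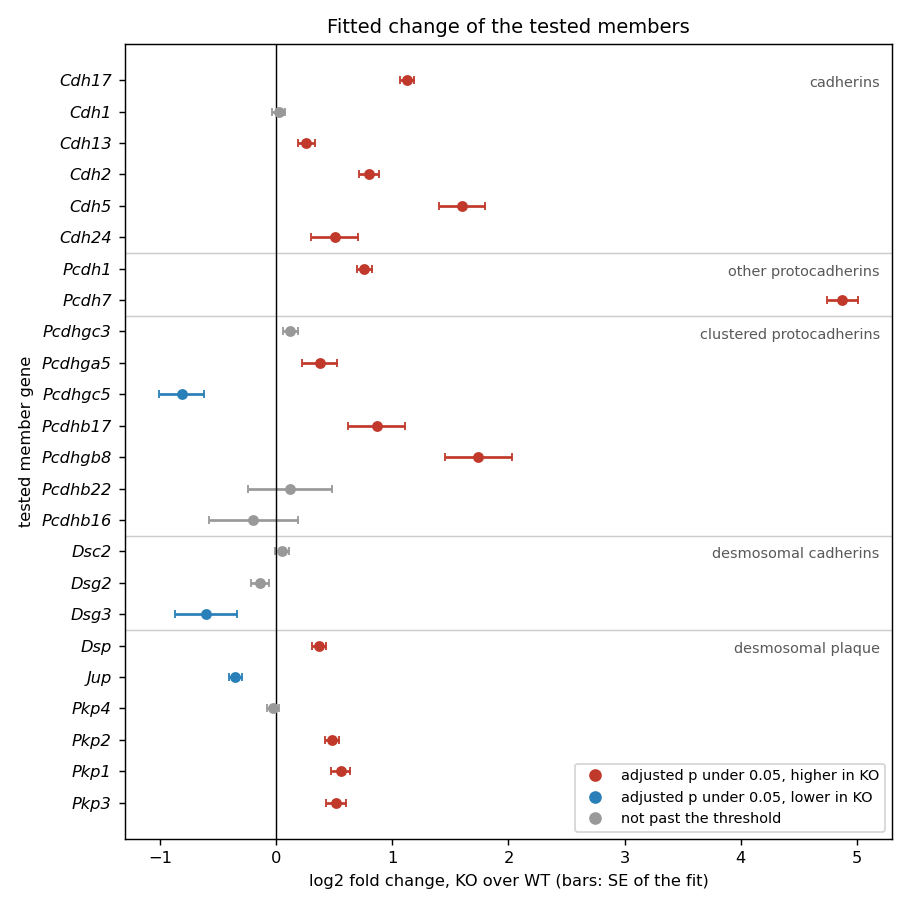
Fitted log2 fold change, STK11 KO over STK11 WT, of the 24 tested members grouped by role, with bars of 1 SE; red and blue points passed the edgeR test and grey points did not. Pcdh7 at 4.88 lies far to the right, and only Pcdhgc5, Dsg3 and Jup passed on the lower side.

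The clustered protocadherins, all 58 on chromosome 18, mostly had few or no counts. The 14 alpha genes had 0 counts in every library. These 14 genes end within 4 bases of each other, so reads of shared last exons may have gone uncounted. Of 22 beta genes, 19 had a count and 3 were tested; of 22 gamma genes, 20 had a count and 4 were tested. Across these 7 tested genes, 3 were called higher, Pcdhgb8 among them, 1 fell and 3 did not pass. Summed over each cluster, the beta genes came to 4.59 ± 0.438 CPM in STK11 KO and 3.37 ± 0.382 CPM in STK11 WT, and the gamma genes to 99.3 ± 8.81 CPM in STK11 KO and 91.1 ± 4.66 CPM in STK11 WT (SD, n = 4 each).

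All 22 gamma genes end within 4 bases of each other, as alternative first exons spliced to shared last exons, so that reads of the shared exons belong to no single gene and the values below may miss or misplace them. Pcdhgc3, a C-type gene, took 90.1% ± 1.35 of the gamma counts in STK11 KO and 90.4% ± 1.12 in STK11 WT. Its level averaged 89.5 ± 8.30 CPM in STK11 KO and 82.4 ± 3.81 CPM in STK11 WT, with overlapping libraries (log2 0.12 ± 0.06 SE; 95% interval -0.01 to 0.25, adjusted p = 0.0995); without STK11 KO replicate 2 it was 0.17 with an adjusted p of 0.0278. An antisense noncoding RNA that overlaps it, BC037039, had 3.01 ± 0.783 CPM in STK11 KO and 2.39 ± 0.376 CPM in STK11 WT. With all libraries the leading gamma gene was not called, and the calls lay in its minor neighbours.

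Pcdhgb8 had 1.39, 1.18, 1.55 and 1.16 CPM in STK11 KO and 0.286, 0.417, 0.413 and 0.464 CPM in STK11 WT. Its groups were apart, with a fitted fold of 3.34 (log2 1.74 ± 0.29 SE). These values are a description only, since the gene was let into the test by its STK11 KO level. Pcdhgc5, at the end of the cluster, moved the other way: 1.78, 1.60, 2.87 and 1.85 CPM in STK11 KO against 4.05, 3.29, 3.03 and 4.28 CPM in STK11 WT. STK11 KO replicate 3 came close to the lowest STK11 WT library without reaching it, and the log2 fold change was -0.82 ± 0.19 (SE, adjusted p = 0.000727). As a share of gamma counts, Pcdhgb8 made up 1.33% in STK11 KO and 0.435% in STK11 WT, and Pcdhgc5 2.04% in STK11 KO and 4.01% in STK11 WT. Pcdhga5 rose by a log2 of 0.37 ± 0.15 (SE, adjusted p = 0.0322), at 5.00 ± 0.646 CPM in STK11 KO and 3.90 ± 0.680 CPM in STK11 WT. That call was lost in 6 of 19 alternatives: without STK11 KO replicate 3 or STK11 WT replicate 2 or 3 (adjusted p 0.0541 to 0.142), with DESeq2 (adjusted p = 0.0516) or scaling by library size alone (0.102), and against a log2 fold change of 1.

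Among the beta genes, Pcdhb17 rose to 1.99 ± 0.384 CPM in STK11 KO, against 1.10 ± 0.378 CPM in STK11 WT (log2 0.86 ± 0.25 SE, adjusted p = 0.00371), although 1 library of each genotype met at 1.44 CPM. Pcdhb22 and Pcdhb16 did not pass, with log2 fold changes of 0.12 ± 0.36 and -0.20 ± 0.38 (SE). The number of gamma genes with any count was 20 in STK11 KO and 14 in STK11 WT, and of beta genes 18 in each. Such numbers can grow with depth, which was higher in STK11 KO, and the part of depth in them was not tested. Named after its values were seen, the untested Pcdhga9 had 49 counts over the STK11 KO libraries and 9 over the STK11 WT libraries, a depth-scaled ratio of 5.14 (exact 95% interval 2.50 to 11.9, counting error only), with 23 of the 49 in STK11 KO replicate 3.

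**Figure D4:**
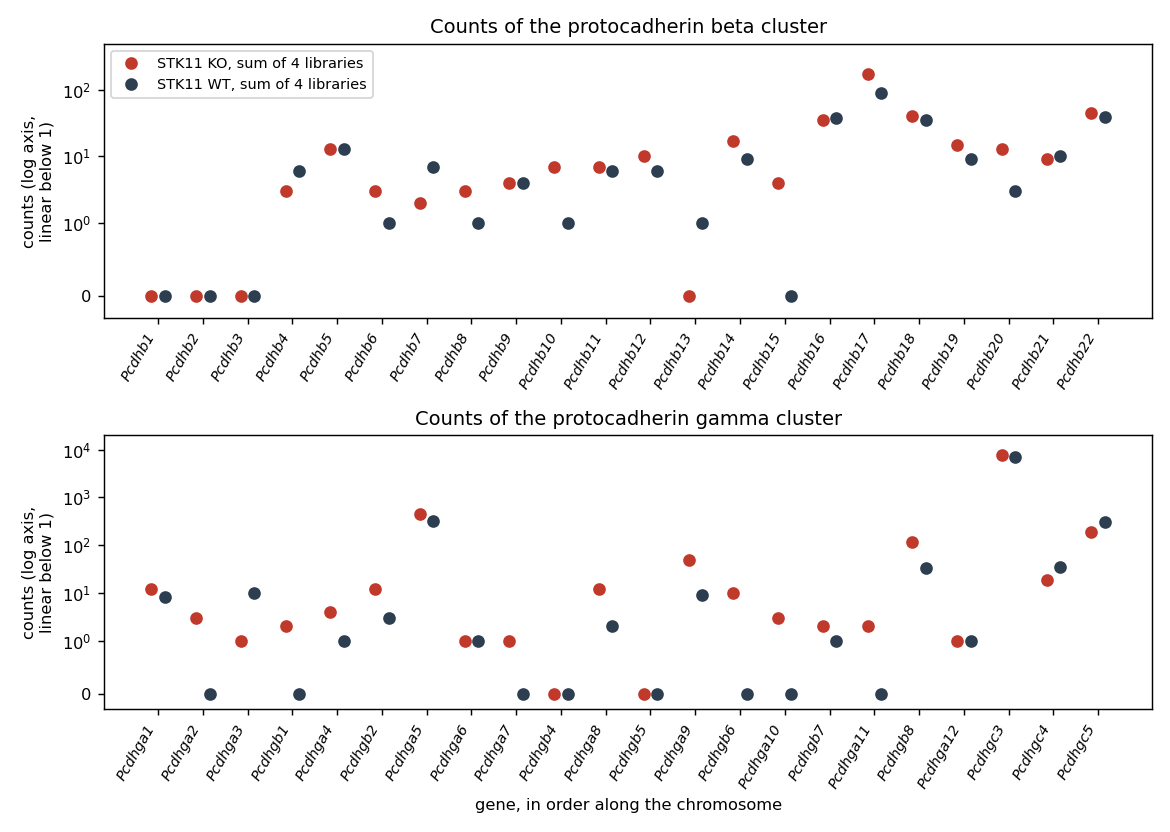
Counts summed over 4 libraries for each gene of the beta cluster (top) and the gamma cluster (bottom), in chromosomal order, on an axis that is logarithmic above 1 and linear below, with STK11 KO points left of STK11 WT points. Pcdhgc3 stands apart at the right of the gamma cluster, with Pcdhgb8 higher and Pcdhgc5 lower in STK11 KO.

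The desmosomal cadherins are 9 genes on chromosome 18, of which 8 had a count and 3 were tested; Dsg3 was called lower, and Dsc2 and Dsg2 did not pass. Dsc2, the desmocollin most widely expressed in simple epithelia, had 77.1, 75.0, 87.2 and 79.5 CPM in STK11 KO and 80.4, 80.5, 76.2 and 71.7 CPM in STK11 WT. The genotypes overlapped (log2 0.05 ± 0.06 SE; 95% interval -0.08 to 0.17, adjusted p = 0.506), and the sign turned under scaling by library size alone. Dsg2, the desmoglein of simple epithelia and heart, had 52.0, 52.2, 67.0 and 51.0 CPM in STK11 KO and 62.2, 64.4, 57.0 and 62.6 CPM in STK11 WT. STK11 KO replicates 1, 2 and 4 lay below all STK11 WT libraries, and STK11 KO replicate 3 lay above them all. With all libraries the log2 fold change was -0.14 ± 0.08 (SE; 95% interval -0.30 to 0.01, adjusted p = 0.0989); without STK11 KO replicate 3 it was -0.25 with an adjusted p of 0.000391, and with scaling by library size alone it was -0.22 with an adjusted p of 0.0232. Dsg3, a desmoglein of stratified epithelia, was scarce, at 0.939 ± 0.343 CPM in STK11 KO and 1.44 ± 0.326 CPM in STK11 WT. Its fall (log2 -0.61 ± 0.27 SE, adjusted p = 0.0498) sat at the threshold with overlapping groups. It was lost in 12 of 19 alternatives, among them leaving out STK11 KO replicate 1, 2 or 3 or STK11 WT replicate 1, 3 or 4 (adjusted p 0.0574 to 0.163). Per length, Dsc2 and Dsg2 held 68.8% and 30.5% of the desmosomal cadherin level in STK11 KO, and 65.6% and 33.4% in STK11 WT.

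On the inner side of the junction, all 6 plaque genes were tested, of which 4 rose, 1 fell and Pkp4 did not pass. Dsp, the gene of desmoplakin, which links the plaque to keratin filaments, had 352, 308, 361 and 311 CPM in STK11 KO and 272, 272, 244 and 246 CPM in STK11 WT. Jup, the gene of plakoglobin, which is shared by desmosomes and adherens junctions and is the close relative of beta-catenin, had 181, 158, 165 and 152 CPM in STK11 KO and 208, 221, 202 and 208 CPM in STK11 WT. Each gene's groups were apart, Dsp upwards and Jup downwards. The fitted change was 1.29-fold up for Dsp (log2 0.37 ± 0.06 SE, adjusted p = 1.65e-05) and 1.28-fold down for Jup (log2 -0.36 ± 0.06 SE, adjusted p = 8.89e-06). Of the per-length level of the plaque genes, Dsp held 31.1% in STK11 KO and 26.4% in STK11 WT, and Jup 23.0% in STK11 KO and 32.2% in STK11 WT. Per length Jup stood at 25.5 RPKM in STK11 KO, below Dsp at 34.5 RPKM, and at 32.6 RPKM in STK11 WT, above Dsp at 26.7 RPKM. Both promoters, printed above, hold GC boxes.

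The plakophilins, armadillo-repeat proteins that cluster desmosomal cadherins, split by member. Pkp1, prominent in stratified epithelia, had 70.7, 57.0, 79.4 and 60.2 CPM in STK11 KO and 43.9, 44.8, 48.6 and 45.2 CPM in STK11 WT. Pkp2, the form found in most desmosome-bearing tissues and in heart, had 83.3, 78.3, 74.1 and 74.0 CPM in STK11 KO and 56.2, 57.2, 57.5 and 50.8 CPM in STK11 WT. Pkp3, a form of most epithelia, had 14.0, 15.0, 15.0 and 15.5 CPM in STK11 KO and 9.72, 11.0, 10.7 and 10.5 CPM in STK11 WT. In each of these genes all STK11 KO libraries exceeded all STK11 WT libraries, with STK11 KO replicates 1 and 3 highest for Pkp1. Their rises were of like size: 1.47-fold for Pkp1 (log2 0.55 ± 0.08 SE, adjusted p = 7.55e-06), 1.39-fold for Pkp2 (log2 0.48 ± 0.06 SE, adjusted p = 2.89e-07) and 1.42-fold for Pkp3 (log2 0.51 ± 0.09 SE, adjusted p = 2.11e-05). Pkp4, also called p0071, which is found at adherens junctions as well, averaged 109 ± 4.34 CPM in STK11 KO and 111 ± 4.43 CPM in STK11 WT (log2 -0.03 ± 0.05 SE; 95% interval -0.14 to 0.08, adjusted p = 0.623). It was the plakophilin with the highest per-length level, at 37.4% of their sum in STK11 KO and 46.6% in STK11 WT. Markers of stratified epithelium, Krt5, Krt14, Trp63, Krt1, Krt10 and Ivl, summed to 5.51 to 7.73 CPM in STK11 KO and 3.11 to 4.33 CPM in STK11 WT. Krt14 and Krt10 made up most of both sums and were called higher. The others were too low to be tested and did not all go one way. Over the STK11 KO and STK11 WT libraries, Ivl had 55 and 6 counts, Krt1 18 and 4, Krt5 3 and 2, and Trp63 14 and 22. The part of these markers in the plakophilin result was not tested.

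The genes that work with these members were counted in lists written from general knowledge. Over all tested genes 68% were called, 34.4% higher and 33.6% lower, and the counts of each list below stand beside those shares. Of 21 listed catenins and other adherens junction partners 17 were tested, of which 10 fell and 5 rose, while 2 were not called; their median log2 fold change was -0.28 beside 0.01 over all tested genes. Ctnnb1, the gene of beta-catenin, fell to 1048 ± 29.0 CPM in STK11 KO, against 1855 ± 97.2 CPM in STK11 WT (log2 -0.82 ± 0.06 SE, adjusted p = 2.43e-11). Arvcf, a p120-catenin relative, fell to 4.88 ± 0.320 CPM in STK11 KO, against 16.2 ± 0.889 CPM in STK11 WT (log2 -1.73 ± 0.10 SE). Of the nectins, immunoglobulin-type partners of the adherens junction, Nectin1 and Nectin2 rose, with Pard3, Magi1 and Magi2 the other rises of the list. Nectin1 stood at 74.8 ± 11.6 CPM in STK11 KO and 4.84 ± 0.493 CPM in STK11 WT (log2 3.95 ± 0.11 SE, adjusted p = 4.95e-17). Nectin4, named after its values were seen, fell to 0.442 ± 0.0510 CPM in STK11 KO, against 1.99 ± 0.435 CPM in STK11 WT (log2 -2.17 ± 0.27 SE). Only in STK11 WT did all libraries of Nectin4 reach the abundance filter, so its values are a description only. Nectin3 had no counts. Both beta-catenin and its relative Jup were therefore lower in STK11 KO, beside an uncalled Cdh1.

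Of 18 listed genes of the wider cadherin superfamily 8 were tested, of which 5 fell and 2 rose, while 1 was not called; the median log2 fold change was -0.56. Fat1, a giant atypical cadherin, had 322 ± 32.2 CPM in STK11 KO and 595 ± 32.1 CPM in STK11 WT (log2 -0.89 ± 0.07 SE), and Cdhr2, a protocadherin-like gene of brush-border microvilli, 5.46 ± 0.512 CPM in STK11 KO and 17.3 ± 1.16 CPM in STK11 WT (log2 -1.67 ± 0.10 SE). The direction of Fat1 and Cdhr2 was opposite to that of Cdh17, whereas the 2 that rose were Cdhr1 (log2 0.80 ± 0.28 SE) and Fat2 (log2 0.31 ± 0.12 SE). Of 12 desmosome and cornified partners 9 were tested, of which 3 rose and 4 fell, with a median of -0.12. Ppl, the gene of periplakin, fell to 79.6 ± 10.2 CPM in STK11 KO, against 250 ± 5.79 CPM in STK11 WT (log2 -1.65 ± 0.07 SE), and Krt7 to 317 ± 35.7 CPM in STK11 KO, against 1181 ± 25.4 CPM in STK11 WT (log2 -1.90 ± 0.07 SE). Krt19, a keratin of simple epithelia, rose by a log2 of 0.22 ± 0.06 (SE). Of the other listed keratins, Krt18 fell (log2 -0.49 ± 0.07 SE) and Krt8 was not called. Krt14 was scarce and rose, at 2.73 ± 0.626 CPM in STK11 KO and 1.28 ± 0.335 CPM in STK11 WT (log2 1.12 ± 0.22 SE). Keratins, the filaments that desmosomes hold, thus moved in both directions.

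Among the proteases and endocytic regulators of cadherins, 4 of 9 rose and 2 fell, with a median of -0.02. Adam17, a sheddase, stood at 157 ± 10.2 CPM in STK11 KO and 93.5 ± 4.22 CPM in STK11 WT (log2 0.75 ± 0.06 SE), and Psen2, a subunit of gamma-secretase, at 8.18 ± 1.13 CPM in STK11 KO and 13.9 ± 1.78 CPM in STK11 WT (log2 -0.76 ± 0.11 SE). Of 8 repressors of Cdh1 6 were tested, of which 4 rose and 1 fell, with a median of 0.30. Snai2, a zinc-finger repressor of E-cadherin, was at 5.37 ± 0.904 CPM in STK11 KO and 0.465 ± 0.124 CPM in STK11 WT (log2 3.52 ± 0.23 SE). It had 11, 13, 7 and 8 counts in STK11 WT replicates 1 to 4, and only in STK11 KO did all its libraries reach the abundance filter. Its values are thus a description only, although it is counted among the 4 that rose. Snai1 was at 26.0 ± 2.05 CPM in STK11 KO and 18.3 ± 0.846 CPM in STK11 WT (log2 0.50 ± 0.08 SE). Of 9 activators of epithelial junction genes 6 were tested, of which 3 rose and 1 fell, with a median of 0.21 and with Elf3, an epithelial ETS factor, at 275 ± 39.2 CPM in STK11 KO and 81.6 ± 7.19 CPM in STK11 WT (log2 1.75 ± 0.09 SE). Grhl3, also counted among these rises, likewise reached the filter in all its libraries only in STK11 KO. Rises were thus called both among the listed repressors of Cdh1 and among the listed activators of epithelial junction genes. Cdh1 itself did not pass, and the part of either list in its level was not tested. Of the 10 regulators of clustered protocadherins, 4 rose and 4 fell, with a median of -0.07; Ctcf, which loops their promoters to enhancers, was at 73.9 ± 1.78 CPM in STK11 KO and 45.8 ± 3.14 CPM in STK11 WT (log2 0.69 ± 0.06 SE), and Dnmt3b, which methylates them, at 1.00 ± 0.263 CPM in STK11 KO and 1.66 ± 0.191 CPM in STK11 WT (log2 -0.72 ± 0.23 SE).

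**Figure D5:**
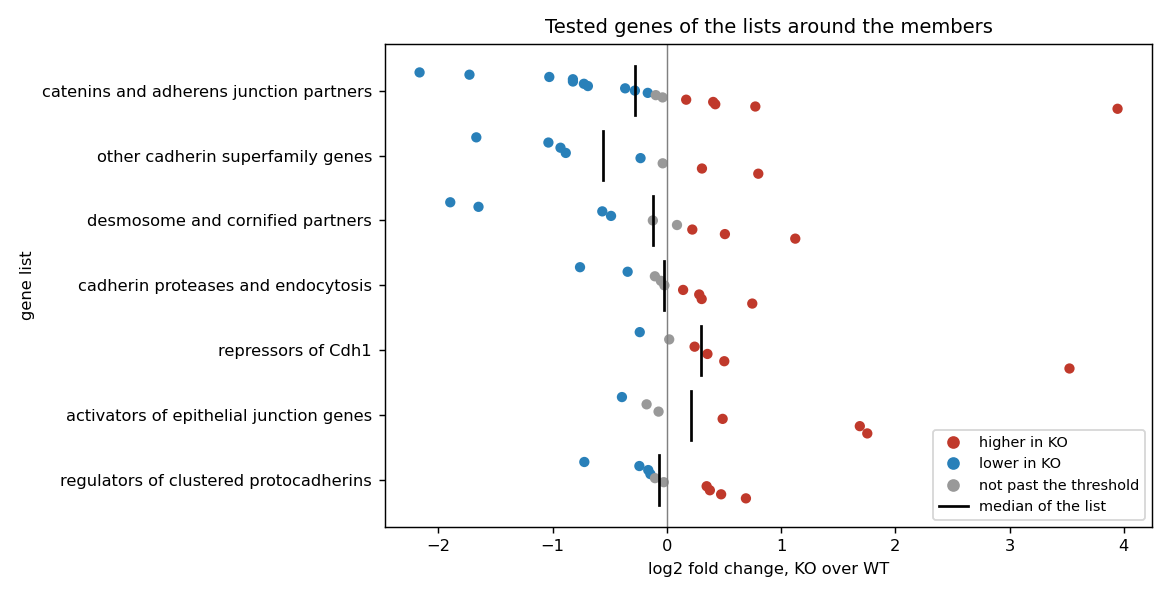
Log2 fold change, STK11 KO over STK11 WT, of every tested gene in 7 lists around the members, coloured by the edgeR call, with a black line at each list's median. The superfamily list has the lowest median, -0.56, and single genes such as Nectin1 at 3.95 and Snai2 at 3.52 lie far from their list's median. All libraries of Snai2 reached the abundance filter only in STK11 KO.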

How the data were processed

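Bulk RNA was sequenced from 4 STK11 KO and 4 STK11 WT libraries of Lacun3 cells, as paired reads of 51 bp from 100 ng of RNA with a stranded mRNA kit, per the labels' protocols. Per the submitters' processing notes, the build was GRCm39 and the tools included STAR 2.7.9a and featureCounts 1.6.0, besides FastQC 0.11.8, limma and edgeR. The sources used here do not give the strand setting or the handling of reads with several matches, so overlapping and clustered genes may share or lose reads. The authors deposited raw counts for 56884 genes and log2 CPM values for 15726 genes; the log2 values were used in an alternative and, recomputed from the counts, follow a single effective library size per library.

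Counts were tested with edgeR 4.0.16 (R 4.3.3; TMM scaling, filterByExpr, glmQLFit with robust estimation, glmQLFTest), genotype being the only term, with Benjamini-Hochberg adjustment over the 13707 genes that passed the filter and a threshold of 0.05. "Rose" and "fell" mark calls, and fold changes are STK11 KO over STK11 WT. The standard error is the absolute log2 fold change over the square root of F. CPM are counts over TMM-scaled library sizes. RPKM divide CPM by the summed exon length of GENCODE M21 (GRCm38), found for all 108 members, so a length may differ from that of the GRCm39 annotation. The floor used for bounds, 3 counts over a group, equals 0.0338 CPM in STK11 KO and 0.0358 CPM in STK11 WT; bounds and intervals cover counting error only. No pair of libraries agreed within sampling noise (chi-square over degrees of freedom 3.12 to 18.9).

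The members and lists were chosen with earlier results of these data known. Named are members called with at least 2-fold change, the 10 with the highest mean CPM, a set of junction genes regardless of value, and of each list up to 2 genes in each direction, taken by smallest adjusted p, not all of which are printed; other members are given as part of their class. The test was also run on counts simulated for 13707 genes, of which 200 were changed. It recovered 76.7% of genes changed 1.5-fold, 93.8% at 2-fold and 98.4% at 4-fold, and 5.82% of calls were false. In the data 68% of tested genes were called, a far larger share than was changed in the simulation, so these rates need not hold for this comparison. The alternatives were 3 scalings, 2 filters, DESeq2 1.42.0, limma-voom and limma on the deposited log2 values (limma 3.58.1), glmTreat, a replicate block and each library left out; edgeR's legacy quasi-likelihood was added after seeing the data.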

Additional observations from a re-analysis of the deposited data

Results flagged for a closer look

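One value stood apart from the rest of its group. Dsg2 was at 67.0 CPM in STK11 KO replicate 3, while the other STK11 KO libraries lay at 51.0 to 52.2 CPM, and the gap to the nearest of them exceeded Dixon's 95% critical value for 4 samples (0.829). Over the 52 groups examined it was the only such value, where chance gives about 1 in 20. The STK11 WT libraries lay at 57.0 to 64.4 CPM. Replicate 3 was also the STK11 KO library least like the others in its counts, with a chi-square over degrees of freedom of 13.0 to 18.9 in the pairs that hold it and at most 8.90 in all other pairs of the same genotype.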

How the results depend on the processing

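Of 24 tested members, 17 were called in the reported fit. Other scalings, a filter of 1 CPM, DESeq2, limma-voom, the legacy test, the block and left-out libraries called 14 to 17 of the 22 to 25 members they tested. The deposited log2 values gave 18 of 28, keeping 16 of the 17 and adding Cdh22 and Pcdhga9, and no filter gave 21 of 72. Pcdh7, Cdh5 and Pcdhgb8 were the only members called against a log2 fold change of 1 (glmTreat), with Cdh17 at an adjusted p of 0.0719; Pcdhgb8 was tested only because of its level in STK11 KO. That threshold left 1351 genes, 3 members higher and 0 lower: cadherins 1, clustered protocadherins 1, other protocadherins 1, desmosomal cadherins 0 and plaque genes 0. In the lists it left 3 adherens partners, 1 superfamily gene, 2 desmosome partners, 0 proteases, 1 repressor, 2 activators and 0 regulators. Only Snai2 among the repressors and only Elf3 and Grhl3 among the activators had a called change of at least 2-fold. Snai2 and Grhl3 reached the abundance filter in all libraries only in STK11 KO. Nectin4 (log2 -2.17), which did so only in STK11 WT, could be among the adherens partners. These list counts are therefore a description only. With no filter, where more genes were tested, 5 members were lower. The calls were then 7 among clustered protocadherins, 4 among other protocadherins and 0 among desmosomal cadherins. The 6 further members called were Cdh22, Pcdhga9 and Pcdhgb6 higher and Pcdh15, Pcdh19 and Pcdhga3 lower. In these 6 the lower genotype held 0 to 9 counts in sum, so their calls, also those with the deposited log2 values, are a description only. Calls among desmosomal cadherins were 2 with library size alone, 0 with DESeq2, limma-voom, the deposited log2 values or the legacy test, and 0 to 1 with a library left out; the cause was not tested. Library size alone moved the median of all genes to -0.07 and gave log2 fold changes of -0.066 for Cdh1 and -0.035 for Dsc2, both reversed. With single libraries left out, the ranges were -0.028 to 0.064 for Cdh1, -0.00198 to 0.36 for Pcdhb22 and -0.28 to 0.046 for Pcdhb16, all uncalled, and -0.84 to -0.71 for the Cdh1 to Cdh2 ratio. Genes called then numbered 8921 to 9656. Replicate numbers did not pair the libraries: the deviations of same-numbered libraries correlated at -0.12 to 0.04. With the replicate number as a block, 9182 genes and 17 members were called, and the Cdh1 to Cdh2 difference stayed at -0.77 with an exact p of 0.125, the smallest that 4 pairs allow. The other 48 members with a count were below the filter of the reported fit, and the part of sequencing depth in this was not tested.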

Other observations

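The STK11 KO libraries varied more among themselves in these genes than the STK11 WT libraries. The coefficient of variation over 4 libraries had a median of 11.7% in STK11 KO and 5.87% in STK11 WT over the 24 tested members, and was higher in STK11 KO for 19 of them. It was not computed for other genes. Across genes in general, the chi-square over degrees of freedom was 4.52 to 18.9 in pairs of STK11 KO libraries and 3.12 to 6.93 in pairs of STK11 WT libraries. The wider spread is therefore not shown to be particular to the members. STK11 KO replicate 2 was the lowest of its group for 12 members and the highest for 0, while STK11 KO replicate 3 was the highest for 9 and the lowest for 4. Among the STK11 WT libraries, replicate 2 was the highest for 11 and replicate 3 the lowest for 10.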
